A study of Sus scrofa with 16 samples.

Results

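Transporters that carry amino acids and small peptides across cell membranes were read in the colonic mucosa and liver of pigs fed corn starch or raw potato starch. The set held 10 genes, SLC7A8, SLC7A1, SLC7A2, SLC7A6, SLC7A7, SLC7A9, SLC3A1, SLC3A2, SLC15A1 and SLC1A1, and its probes were found by gene name among the 43603 non-control probes of the array. The genes were selected on their function with the differences of these arrays between diets and tissues already known, so the values describe them, and the p-values are those of the fit over all probes and no test of the choice. The names gave 24 probes for 9 genes. A gene name in the scanner files gave 21 of them, and the other 3, for SLC7A8, carried the locus number 100522330, which the RefSeq table of pig genes gives as SLC7A8. No probe was found for SLC7A6 (a probe for the different gene SLC7A6OS was not used).

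The pigs were Duroc × Landrace × Large White barrows on a 100-day trial that started at 70 days of age. The CS diet held purified corn starch (230 g/kg in the growing and 280 g/kg in the finishing feed), and the RPS diet held the same amount of purified raw potato starch, a starch that resists digestion in the small intestine, in its place. Mucosa scraped from the proximal colon and liver of 170-day-old pigs were hybridized to 16 one-colour arrays, 4 for each diet in each tissue. Within a tissue the arrays came from different pigs. Fewer pigs were slaughtered than arrays were made, so some pigs gave both tissues, and the labels do not say which. The fits between tissues treat the 16 arrays as separate. The starch was the one treatment that differed between the groups of a tissue. Each scanned slide held the 4 arrays of 1 group, so that neither diet nor tissue can be told apart from slide.

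The share of probes well above background was 68.7% to 72.2% on the colonic CS arrays, 64.9% to 68.1% on the colonic RPS arrays, 61.0% to 65.9% on the liver CS arrays and 62.5% to 64.0% on the liver RPS arrays. The median signal before normalization was 56.3 to 70.8 on the colonic CS arrays and 34.2 to 42.5 on the colonic RPS arrays, without overlap, whereas the liver ranges were 30.6 to 37.9 with CS and 31.1 to 37.9 with RPS. No spot was saturated. Values below are log2 signals after quantile normalization, which removed these differences in brightness, and 1 unit is a doubling. The flag for well above background comes from the scan before normalization, and fewer probes carried it on the colonic RPS than on the colonic CS arrays. A level is compared only between arrays at the same probe, because probes bind with different strength.

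Most of these proteins work in pairs. A light chain of the SLC7 family carries the amino acids, mostly as an exchanger, and a heavy chain (SLC3A1 or SLC3A2) carries it to the membrane. In absorbing epithelium, SLC3A1 with SLC7A9 takes cystine and cationic amino acids in from the lumen, and SLC3A2 with SLC7A7, SLC7A6 or SLC7A8 releases cationic or neutral amino acids on the blood side. SLC7A1 and SLC7A2 carry arginine and lysine without a heavy chain, SLC15A1 takes up di- and tripeptides with protons, and SLC1A1 takes up glutamate and aspartate. The small intestine is the main site of this uptake, and the liver takes up amino acids for the urea cycle and for protein synthesis.

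The probes are stretches of 60 bases. Those below begin within the first 1431 bases of the transcript the array was designed on and have a reading frame without a stop codon, and they are shown because the results turn on their genes. For SLC7A8, which had the diet differences in the colon, the probe at which the gene is read begins at base 809 and a dimmer probe at base 1414 of the same transcript:
A_72_P328188: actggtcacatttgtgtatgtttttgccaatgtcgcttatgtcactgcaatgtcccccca
A_72_P412544: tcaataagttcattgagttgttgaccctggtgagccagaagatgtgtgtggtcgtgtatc
For SLC1A1, which was not well above background on any colonic array, probes begin at bases 677 and 1146 of 1 transcript:
A_72_P178421: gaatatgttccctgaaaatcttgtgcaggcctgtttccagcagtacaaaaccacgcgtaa
A_72_P414488: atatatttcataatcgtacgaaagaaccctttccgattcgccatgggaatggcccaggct
For SLC7A9, which differed most between pigs in the colon, probes begin at bases 1431 and 1270 of 1 transcript:
A_72_P088796: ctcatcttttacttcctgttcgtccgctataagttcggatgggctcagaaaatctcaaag
A_72_P538288: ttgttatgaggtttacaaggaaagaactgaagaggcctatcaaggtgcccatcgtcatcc

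Each gene is described at its brightest probe over the 16 arrays, and its other probes by their range. The tissues carried their own markers. Of the hepatocyte markers, 6 of 8 had a probe and all 6 were higher in the liver, while TTR and CYP2E1, which define hepatocytes, were not well above background on any colonic array. The other measured hepatocyte markers were above background on the colonic arrays, except ALB on CS replicates 3 and 4. Of the colonic epithelium markers, 8 of 10 had a probe and 7 were called higher in the colon, while KRT20 and CDX2, which define intestinal epithelium, were not well above background on any liver array. The other measured epithelium markers, KRT8 the brightest, were above background on every liver array.

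In the colon, 2 arrays stood apart in these markers, replicate 3 of the CS group and replicate 2 of the RPS group. The summed signal of the B and plasma cell markers (3 of 6 measured, MS4A1 the brightest) was 292, 1801, 9540 and 1616 on the CS arrays and 125, 8096, 388 and 222 on the RPS arrays. The T cell markers (6 of 6 measured, CD3D the brightest) summed to 3899.5, 5019, 11041 and 3615 with CS and to 5678, 7039, 3251 and 1983 with RPS. The colonic epithelium markers (LGALS4 the brightest on 7 of 8 arrays) summed to 225755 and 318830 on these 2 arrays and to between 603446 and 795611 on the other 6. The same 2 arrays were thus highest in both lymphocyte lists and lowest in epithelium. No measured marker of these 3 lists was at background on any colonic array. In such bulk samples, fewer cells of a type and less RNA per cell cannot be told apart. The diet differences of the transporters in the colon are given with and without these 2 arrays (except SLC1A1, at background there), and those of other genes with all arrays.

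SLC7A8, the light chain that carries neutral amino acids, was the 1 member with a diet difference past both thresholds in the colon, and it was lower with RPS. The cut-offs follow the study (p under 0.05 before adjustment and a change of more than 1.5-fold), but here they were applied to the p of limma. With the methods' t-test no member probe passed them, and none did with normexp background correction, which put SLC7A8 at -0.26. At its brightest probe the log2 signals were 5.72, 5.28, 4.92 and 4.96 with CS and 4.37, 5.08, 4.40 and 3.44 with RPS. Replicate 4 of the RPS group was the lowest of the 8 and was not well above background, and replicate 2 of that group was within the CS range, so the groups overlapped. The means were 5.22 ± 0.37 with CS and 4.32 ± 0.67 with RPS (SD, n = 4), a fall of 1.87-fold (log2 difference -0.90, SE 0.36, 95% interval -1.74 to -0.06). The limma p was 0.0382 before and 0.900 after Benjamini-Hochberg adjustment over all probes. After adjustment the difference was thus not distinguished from the spread between pigs. It was -1.15 to -0.61 with single arrays left out, and no longer past both thresholds in 5 of the 8 such fits. The smallest difference was the one without RPS replicate 4.

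At the SLC7A8 probe A_72_P378328, which starts at base 4023 of its transcript, the log2 signals were 4.43, 5.74, 3.79 and 3.91 with CS and 3.62, 3.58, 2.87 and 1.68 with RPS. Here the groups did not overlap, and all 4 CS arrays but 0 of 4 RPS arrays were well above background. That flag is set before normalization, and the colonic RPS arrays were dimmer there. Diet and slide brightness thus cannot be told apart in this split. Because the RPS signal is only a bound, SLC7A8 was at least 1.96-fold lower with RPS at this probe (the mean of the CS arrays against, on each RPS array, the higher of the probe's own signal and the lowest signal well above background). The fitted difference was -1.53 (SE 0.58, limma adjusted p = 0.892), and it spanned -1.96 to -0.21 over the alternatives run. The bound is that of the main processing only. At the probe A_72_P412544 the RPS mean was also lower, but the difference did not pass. Only 2 of 4 CS and 0 of 4 RPS arrays were well above background there, so no size is given.

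**Figure D1:**
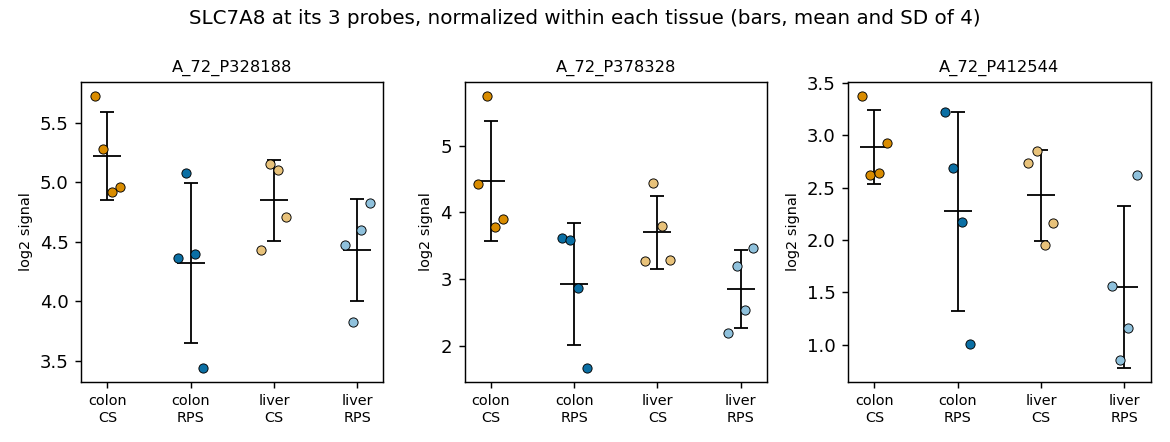
Log2 signal of SLC7A8 (vertical axis) at its 3 probes by tissue and diet, normalized within each tissue, with 1 point per array and the mean and SD of 4 arrays as bars. The colonic RPS mean lies below the colonic CS mean in every panel, by 0.90 log2 units at the brightest probe, and the colonic groups separate only at A_72_P378328. At A_72_P378328 and A_72_P412544, 0 of 4 colonic RPS arrays were well above background, so no exact size is read from these panels.

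In the liver the difference of SLC7A8 at its brightest probe was -0.42 (SE 0.25, limma adjusted p = 0.770) and did not pass. The liver signals there were 4.43, 5.15, 5.10 and 4.70 with CS and 4.47, 3.83, 4.60 and 4.83 with RPS, and these ranges overlapped. The 2 dimmer probes, A_72_P378328 and A_72_P412544, were well above background on 2 and 0 of the 8 liver arrays, so no liver difference is given for them. Neither passed both thresholds, though one or both did with scaling to the 75th percentile, with all 16 arrays in 1 fit, with the replicate number as a block, and without liver CS replicate 1 or 4 or RPS replicate 4. The diet effect in the colon minus that in the liver was -0.50 at the brightest probe (95% interval -1.48 to 0.47, limma adjusted p = 0.999), so a difference between the tissues was not shown.

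Of the 24 member probes, 2 passed both thresholds in the colon, both for SLC7A8 and both lower with RPS, against 2.94% of all 43603 probes, of which 1.32% were lower and 1.62% higher. Groups without overlap were found at 2 member probes, against 6.5% of all probes. These were A_72_P378328 of SLC7A8 and A_72_P178421 of SLC1A1, the latter well above background on 0 of 8 colonic arrays. After adjustment no probe of the array passed 0.05 in limma, while 2362 had an unadjusted p under 0.05, and the lowest adjusted p among the members was 0.892. The median difference over the member probes was -0.12, beside 0.01 over all probes. Without the 2 arrays rich in B cell markers, an alternative chosen after seeing the data, 2 member probes passed, while the count over all probes went from 1283 to 2385, and SLC7A8 at its brightest probe was lower by 1.25 log2 units (limma adjusted p = 0.403). Leaving out single arrays gave 0 to 3 probes, with 0 without CS replicate 1 or 2 or RPS replicate 3 or 4, 1 without RPS replicate 1, and 3 without RPS replicate 2.

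Markers of other cells also had different means between the diets in the colon, although only CD4 and COL1A2 among those below passed both thresholds. All 6 T cell markers had lower means with RPS (median -0.52), of which CD4 passed both thresholds (-0.99, SE 0.30). All 3 measured B and plasma cell markers had lower means (median -1.60), as had 2 of the 3 measured macrophage markers (median -0.30), and 7 of 8 epithelium markers had higher means (median 0.18). The macrophage markers (AIF1 the brightest, all 3 well above background on every colonic array) summed to 10252, 11040, 11618 and 10966 with CS and to 9756, 12442, 6417 and 6488 with RPS. All 3 measured smooth muscle markers (of 5, ACTA2 the brightest) had lower means with RPS (median -0.48), and their summed signal was 28627, 30074, 27679 and 28698 with CS and 22095, 17885, 23319 and 17677 with RPS, without overlap. None of the 3 passed both thresholds. All 3 fibroblast and matrix markers were lower on average (median -0.33), and COL1A2, a chain of type I collagen, passed both thresholds (-0.72, SE 0.23). The part of these markers in the SLC7A8 difference was not tested. Of 10897 named probes that were above background throughout the colon, the genes whose levels most resembled SLC7A8 over these arrays were TMEM119 (Pearson r 0.97), TRIM45 (r 0.96) and TYROBP (r 0.95), the last an adaptor of receptors on myeloid and natural killer cells. They are the top of that many correlations over only 8 arrays, which also differ in diet and slide, and were not tested.

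SLC7A7, the light chain that exports arginine and lysine on the blood side, was measured by 4 probes, each well above background on all 16 arrays. In the colon the brightest probe read 11.86, 11.94, 11.74 and 12.26 with CS and 11.45, 11.78, 11.85 and 11.52 with RPS, and the groups overlapped. The difference was -0.30 (SE 0.15, limma adjusted p = 0.975), and the 4 probes gave -0.34 to -0.27. Without the 2 arrays rich in B cell markers it was -0.41 (limma adjusted p = 0.573). In the liver the same probe read 13.01, 13.40, 12.86 and 13.00 with CS and 13.26, 13.24, 13.32 and 13.20 with RPS. The 4 liver differences were positive, 0.16 to 0.19, and at A_72_P585991 the liver groups did not overlap (7.96 ± 0.10 with CS and 8.13 ± 0.06 with RPS, SD, n = 4).

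The 4 SLC7A7 probes thus had a lower mean with RPS in the colon and a higher mean in the liver, all by less than the 1.5-fold threshold. The diet effect in the colon minus that in the liver was -0.52 to -0.44 at these probes, and 2 of the 24 member probes, both of SLC7A7, had an unadjusted p under 0.05, against 4.72% of all probes. After adjustment in limma, no member probe passed (lowest adjusted p = 0.942), against 0.00229% of all probes, which is 1 probe. The 4 probes measure 1 gene on the same arrays and are not 4 independent observations. In the RefSeq annotation (Sscrofa11.1) SLC7A7 and SLC7A8 lie on the same chromosome with 15 protein-coding genes between them.

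SLC3A2, the heavy chain that partners SLC7A7 and SLC7A8, had a higher mean with RPS in both tissues at its brightest probe, within the spread between pigs. The colonic signals were 8.92, 9.22, 9.52 and 9.36 with CS and 9.56, 10.22, 9.65 and 9.06 with RPS, and RPS replicate 4 fell inside the CS range. The differences were 0.37 in the colon (95% interval -0.23 to 0.97) and 0.35 in the liver (95% interval -0.45 to 1.15), and the other SLC3A2 probe gave 0.02 and 0.01. The colonic difference was 0.26 without the 2 arrays rich in B cell markers. Without liver RPS replicate 4 the liver difference was 0.66, past both thresholds with a limma adjusted p of 0.508.

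SLC3A1, the heavy chain of the luminal cystine transporter, read 9.40, 8.56, 7.02 and 8.10 with CS and 8.70, 9.66, 8.84 and 8.20 with RPS in the colon. The lowest and the highest value came from the 2 arrays rich in B cell markers. The difference was 0.58 (95% interval -0.67 to 1.83, limma adjusted p = 0.982), and it was -0.11 without these 2 arrays. In the liver it was 0.72 (95% interval -0.44 to 1.88), and without liver RPS replicate 2 it was 1.17, past both thresholds but with a limma adjusted p of 0.591. Of the 4 SLC3A1 probes, A_72_P041371 and A_72_P691227 share 57 of 58 overlapping bases. On the 8 arrays of a tissue their levels correlated with r of 1.00 in the colon and 0.99 in the liver, a measure of how closely 2 spots read the same stretch of this gene.

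SLC7A9, the light chain that pairs with SLC3A1, differed more between pigs of 1 group than between diets. Its colonic signals were 2.95, 5.50, 6.95 and 5.67 with CS and 2.65, 8.33, 2.45 and 4.47 with RPS, and it was well above background on 3 of 4 CS and 2 of 4 RPS arrays. The highest value of each group came from the array rich in B cell markers. The diet difference was -0.80 (95% interval -4.21 to 2.61), and -1.52 without these 2 arrays (limma adjusted p = 0.692). Without RPS replicate 2 alone, the other SLC7A9 probe, A_72_P538288, passed both thresholds (limma adjusted p = 0.565). The array left out read 6.17 there, and the RPS arrays that remained read 1.70, 1.16 and 1.16. With all arrays, only 3 of 4 CS and 1 of 4 RPS arrays were well above background at this probe, so no size is given.

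SLC7A1, the widely expressed importer of arginine and lysine, had its 2 highest colonic values on the same 2 arrays. It read 10.74, 11.25, 12.79 and 11.15 with CS and 10.76, 12.25, 10.55 and 11.52 with RPS, a diet difference of -0.21 (95% interval -1.49 to 1.06). Without the 2 arrays it was -0.10. On the other 6 arrays SLC7A1 spanned 10.55 to 11.52 and SLC7A9 2.45 to 5.67. The part of the B cell markers in these levels was not tested.

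**Figure D2:**
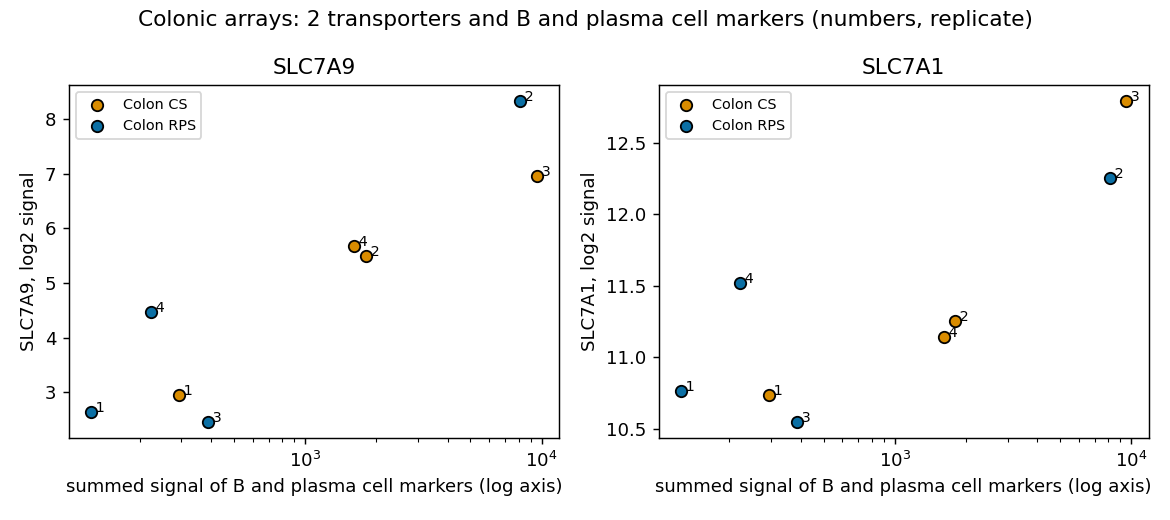
Log2 signal of SLC7A9 and SLC7A1 (vertical axes) against the summed linear signal of 3 B and plasma cell markers (horizontal log axis) on the 8 colonic arrays, numbered by replicate. CS replicate 3 (9540) and RPS replicate 2 (8096) lie apart from the other 6 arrays (125 to 1801) and hold the 2 highest values of both transporters.

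SLC15A1, the peptide transporter, was at background in the liver and above it on some colonic arrays. In the colon its brightest probe read 0.89, 3.33, 4.29 and 3.75 with CS and 4.26, 6.23, 3.12 and 0.83 with RPS, and it was well above background on 3 and 2 of these arrays. The difference was 0.55 (95% interval -2.34 to 3.43), so a change of several fold either way was not detectable. The 2 highest values, 6.23 and 4.29, came from the 2 arrays rich in B cell markers, and the difference was 0.08 without them. In the liver, 1 of the 24 member probes passed both thresholds, against 3.56% of all probes (1.8% higher and 1.76% lower with RPS), and this was the second SLC15A1 probe, A_72_P453085. It read 1.2, 1.02, 1.08 and 1.07 on the CS arrays and 2.40, 1.21, 1.86 and 1.97 on the RPS arrays. The groups did not overlap, but it was well above background on 0 of the 8 liver arrays, so no fold is given, nor was the brightest SLC15A1 probe above background there.

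SLC7A2, the arginine carrier of hepatocytes, read 12.18, 13.29, 12.70 and 14.10 in the liver with CS and 12.89, 13.07, 13.41 and 12.68 with RPS. The RPS values lay inside the CS range, and the difference was -0.06 (SE 0.40). In the colon it was -0.04 (95% interval -0.91 to 0.83), and -0.27 without the 2 arrays rich in B cell markers. SLC1A1 differed by 0.11 in the liver (95% interval -0.64 to 0.86) and was not well above background on any colonic array. For the liver as a whole, 2 member probes had groups without overlap, against 4.44% of all probes, and 0 members passed an adjusted p of 0.05, against 1 probe of the array (0.00229%). The lowest adjusted p among the members was 0.506, and 3309 probes of the array and 1 of the members had an unadjusted p under 0.05. The median difference over the member probes was 0.16, beside -0.00 over all probes.

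**Figure D3:**
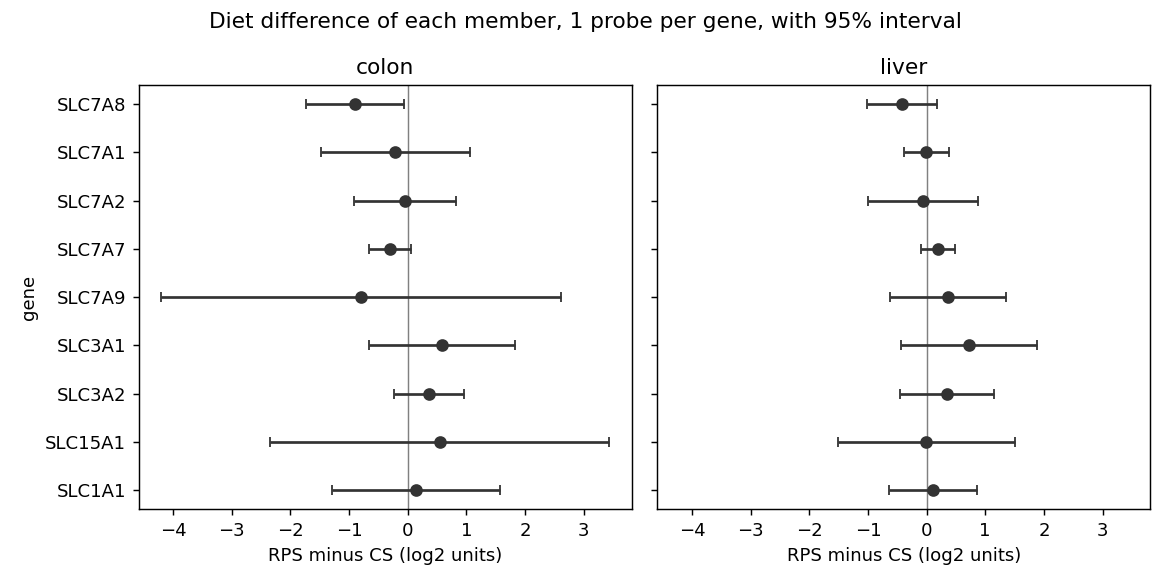
RPS minus CS in log2 units (horizontal axis) for the brightest probe of each of the 9 measured genes in colon and liver, with the 95% interval of the limma fit as bars. Only the SLC7A8 interval in the colon, -1.74 to -0.06, lies to 1 side of 0. SLC1A1 in the colon and SLC15A1 in the liver are at background.

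Between the tissues the transporters differed far more than between the diets. Of the 24 member probes, 17 were called (adjusted p under 0.05 and fold above 1.5), against 42.2% of all probes. Higher in the liver were 15 probes, those of SLC7A2, SLC1A1, SLC7A9, SLC7A7 and SLC3A1, against 18.7% of all probes, and higher in the colon were 2 probes, both of SLC7A1, against 23.4%. Colonic and liver arrays did not overlap at 11 member probes, against 26.8% of all probes. The median difference, colon minus liver, was -1.44 over the members and 0.01 over all probes. Without the 2 arrays rich in B cell markers 17 were called, beside 18168 of all probes in place of 18379. With normexp it was 12 beside 10833, with the CS pigs alone 14 beside 16043, and with the RPS pigs alone 11 beside 15023.

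Among the members measured above background on all 16 arrays, SLC7A2 had the largest difference. Normalized over the 16 arrays, it ranged from 4.2 to 6.07 in the colon (median 4.86) and from 12.25 to 14.06 in the liver (median 13.00). No colonic array came near a liver array, and the difference was -8.13 (SE 0.28, limma adjusted p = 7.63e-12), 279-fold. With normexp background correction it was -5.99. SLC7A2 was well above background on all 16 arrays, so its colonic level, though low, was measured.

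The related carrier SLC7A1 went the other way. It ranged from 10.39 to 12.76 in the colon (median 11.06) and from 8.31 to 9.03 in the liver (median 8.61), a difference of 2.65 (SE 0.31, limma adjusted p = 4.78e-06), 6.29-fold. Its second probe was also called higher in the colon, but it was well above background on 4 of 8 colonic and 0 of 8 liver arrays, so no size is given, and it was not called with normexp. The lowest colonic array was above the highest liver array. Without the 2 arrays rich in B cell markers the difference was 2.26.

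SLC1A1, the glutamate and aspartate transporter, ranged from 6.99 to 8.42 in the liver and was not well above background on any of the 8 colonic arrays at any of its 4 probes. In the main processing it was at least 34.8-fold lower in the colon at its brightest probe. At the others it was at least 8.10-, 7.74- and 4.67-fold lower, a bound set by the background. The fitted differences were -6.56 to -3.89 (limma adjusted p at most 2.19e-09), and with normexp -2.18 at the brightest probe. Over the alternatives run, the smallest differences at the others were -0.88, -0.95 and -0.56 in the same order. The bounds hold for the main processing only.

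The transporters of the luminal cystine system were both lower in the colon. SLC7A9 ranged from 2.14 to 8.12 in the colon (median 4.71) and from 6.95 to 8.83 in the liver (median 7.62), with a difference of -3.22 (SE 0.79, limma adjusted p = 0.00326). Only 5 of 8 colonic arrays were well above background, so this size rests in part on background values. RPS replicate 2 alone reached the liver range. With normexp the difference was -1.27, and without the 2 arrays rich in B cell markers the difference was -4.17. SLC3A1 ranged from 6.78 to 9.49 in the colon (median 8.43) and from 8.75 to 10.74 in the liver (median 9.86), and these ranges overlapped, with a difference of -1.43 (SE 0.38, limma adjusted p = 0.00527) and -1.46 to -1.03 over its 4 probes. With the RPS pigs alone, neither gene was called at its brightest probe (SLC7A9 -3.80, limma adjusted p = 0.0526, and SLC3A1 -1.48, limma adjusted p = 0.0517), nor was SLC3A1 with the CS pigs alone (-1.37, limma adjusted p = 0.0728). With the replicate number as a block, SLC3A1 was called in the CS pigs (limma adjusted p = 0.0228), a fit added after the data were seen because same-numbered CS arrays deviated together.

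Of the pair that works on the blood side, SLC7A7 was lower in the colon and SLC3A2 was not called. SLC7A7 ranged from 11.32 to 12.18 in the colon (median 11.71) and from 12.89 to 13.40 in the liver (median 13.23) without overlap, a difference of -1.48 (SE 0.10, limma adjusted p = 2.27e-08) and -1.92 to -1.48 over its 4 probes. SLC3A2 ranged from 8.73 to 10.06 in the colon and from 8.89 to 10.38 in the liver, a difference of -0.35 (95% interval -0.82 to 0.12). Its other probe gave -0.41 (limma adjusted p = 0.0121), which passed the test but not the fold. SLC7A8 did not differ beyond its spread (-0.41, 95% interval -0.90 to 0.08, limma adjusted p = 0.147).

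SLC15A1 ranged from 0.85 to 5.98 in the colon (median 3.25) and from 0.85 to 3.27 in the liver (median 0.93). It was well above background on 5 of 8 colonic and 0 of 8 liver arrays. No size is given for that reason, and the gene was not called (limma adjusted p = 0.0678). It was called with the slide as a random block and when any 1 of 4 arrays was left out (colonic CS replicate 1, colonic RPS replicate 4, or replicate 4 of either liver group), with adjusted p from 0.0150 to 0.0370.

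**Figure D4:**
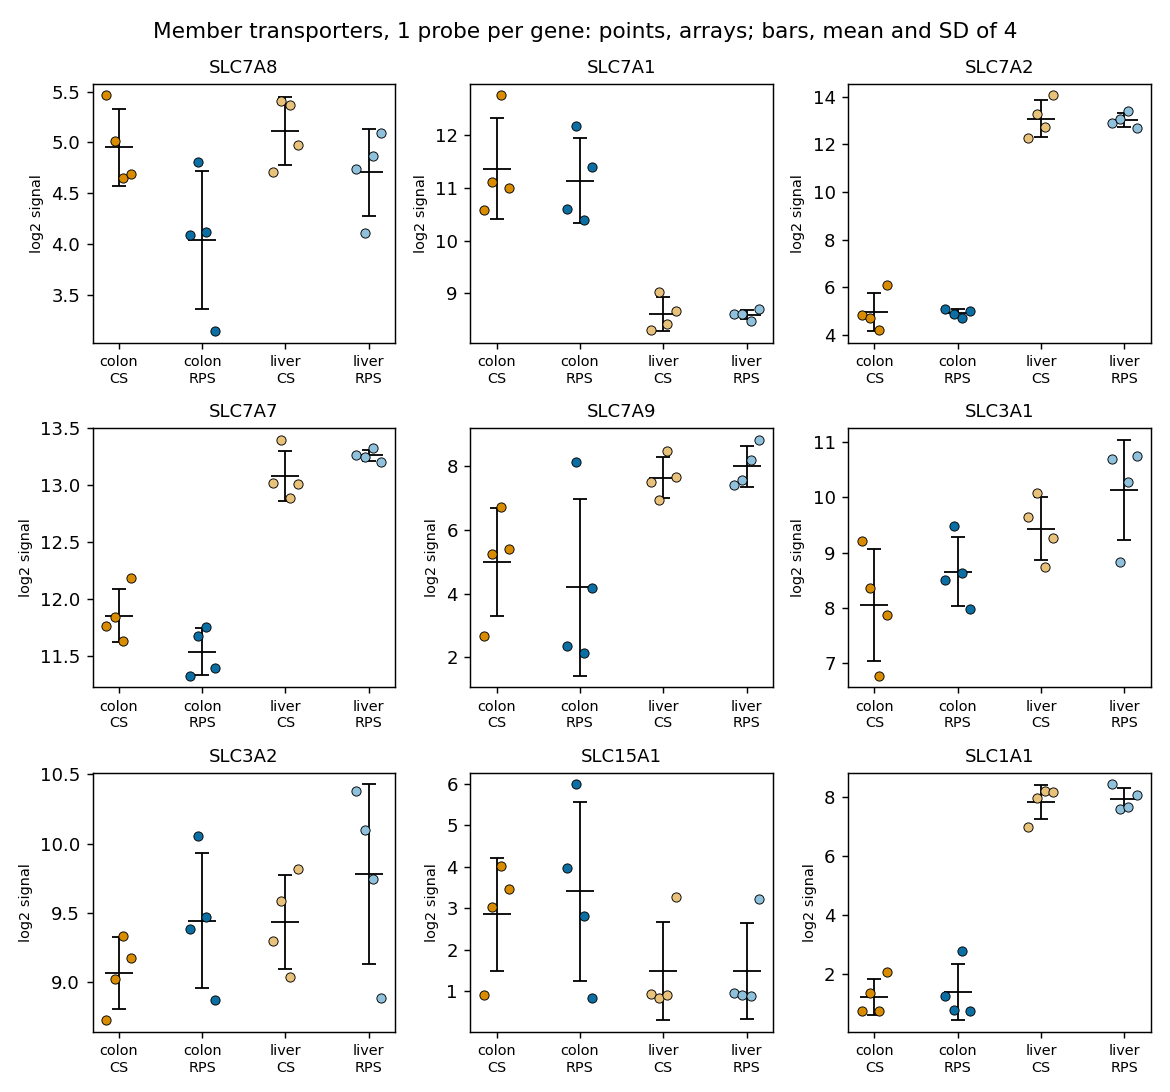
Log2 signal (vertical axes, each with its own range) of the 9 measured genes at their brightest probe in the 4 groups, normalized over all 16 arrays, with 1 point per array and the mean and SD of 4 arrays as bars. SLC7A2 and SLC1A1 are lower in the colon without overlap, SLC7A1 is higher in the colon, and within each tissue the diet groups overlap for every gene shown.

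**Figure D5:**
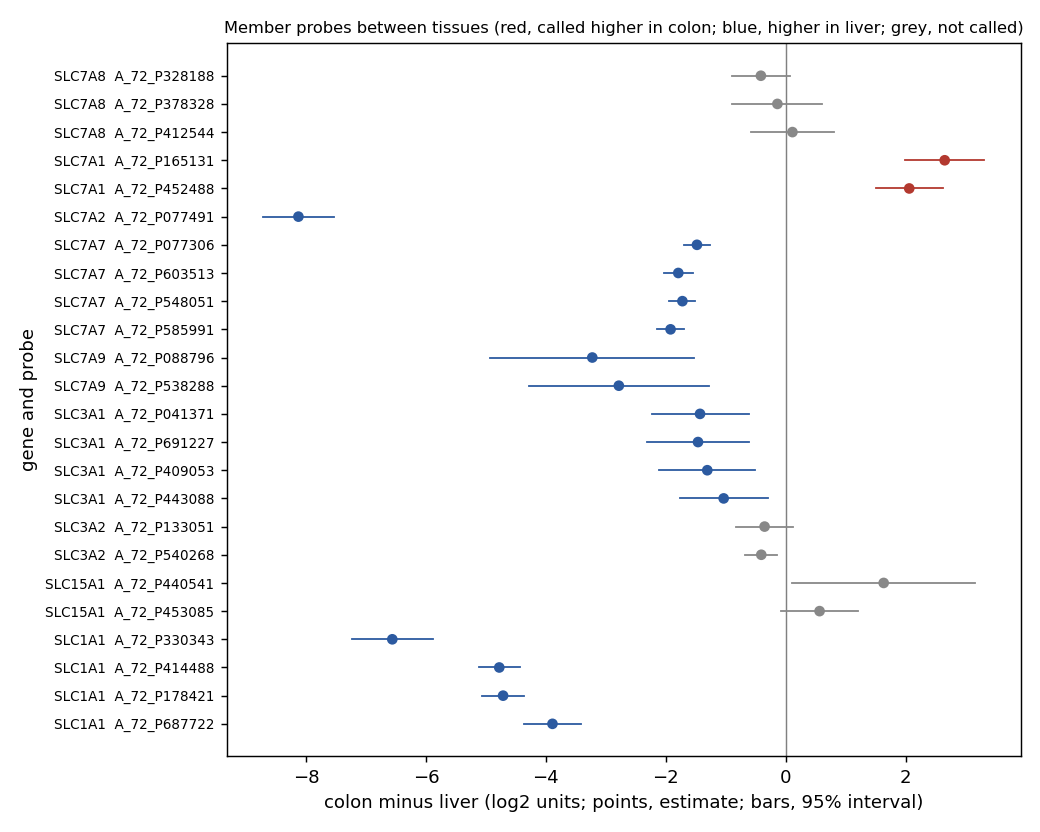
Colon minus liver in log2 units (horizontal axis) for the 24 member probes, with the 95% interval of the limma fit as bars and colour for the call. Probes of 1 gene lie on the same side of 0 except for SLC7A8, whose 3 probes lie between -0.41 and 0.11.

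The same reading was made for 7 further lists of the pathway, 71 genes of which 38 had a probe with that name. They covered other plasma membrane amino acid transporters (12 of 25 measured), other peptide transporters (1 of 3), lysosomal (2 of 5) and mitochondrial carriers (2 of 9), brush border peptidases and partner proteins (6 of 8), urea cycle and arginine enzymes (8 of 10), and ATF4 with its amino acid response genes (7 of 11). With the diets, 0 of the 38 genes passed both thresholds in the colon, where 17 had a higher and 21 a lower mean with RPS, against 2.94% of all probes that passed. In limma 2 of the 38 had an unadjusted p under 0.05, beside 2362 of all 43603 probes, a like share. They were SLC38A7 (-0.58), a carrier of the lysosomal membrane, and SLC25A44 (-0.43), a mitochondrial carrier of branched-chain amino acids. The response genes, which are induced when amino acids run short, had a median difference of -0.03 in the colon and 0.17 in the liver.

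In the liver 3 of the 38 had an unadjusted p under 0.05, beside 3309 of all probes. They were ARG2, NAGS and SLC25A44 (0.49), and 1 of the 38 passed both thresholds, against 3.56% of all probes. The 1 that passed was ARG2, the mitochondrial arginase, which rose from 8.27 ± 0.99 with CS to 9.52 ± 0.21 with RPS (SD, n = 4), a difference of 1.25 (SE 0.46, limma adjusted p = 0.590, exact two-sided permutation p = 0.0857). All 8 measured urea cycle and arginine genes had higher means with RPS in the liver (median 0.39), where 49.0% of all probes did. CPS1 and ASL of this list had no probe with that name. The 8 genes were read on the same arrays and are not independent observations. Of these, ARG1, which makes urea from arginine, differed by 0.75 (SE 0.43) and NAGS, which makes the activator of the first urea cycle enzyme, by 0.56 (SE 0.22), neither past both thresholds, and in the colon 3 of the 8 had higher means.

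Cell markers in the liver also had different means between the diets. All 6 T cell markers were higher on average with RPS (median 0.32), none past both thresholds, and their summed signal (CD3D the brightest) was 526, 446, 611 and 445 with CS and 525, 395, 627 and 1227 with RPS. All 4 endothelium markers (median -0.32) and all 3 measured fibroblast and matrix markers of 5 (median -0.64) were lower on average, again none past both thresholds. The endothelium markers (PECAM1 the brightest) summed to 8976, 9353, 9564 and 9252 with CS and to 8040, 7576, 7063 and 8769 with RPS, without overlap. The matrix markers (DCN the brightest) summed to 4567, 3689, 4362 and 2458 with CS and to 2884, 2431, 1344 and 3505 with RPS. The 3 measured macrophage markers had a median of -0.11 and the 6 hepatocyte markers one of -0.07, and of the 8 colonic epithelium markers CDH1, an adhesion protein of epithelia, passed both thresholds (-0.80, SE 0.21). The part of these markers in the liver differences was not tested.

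Between the tissues, 26 of the 38 genes were called, against 42.2% of all probes. Of these, 7 were higher in the colon, against 23.4% of all probes, and 19 in the liver, against 18.7%. The 4 with the largest fitted differences each way are named. MEP1B, a meprin subunit that cleaves peptides at the brush border, was at least 79.3-fold higher in the colon (8 of 8 colonic and 0 of 8 liver arrays well above background), a bound that gives no rank. NOS2, which makes nitric oxide from arginine, differed by 7.05 (SE 0.51). SLC6A14, an importer of neutral and cationic amino acids, was at least 9.74-fold higher in the colon, and SLC38A5, a carrier of glutamine and other neutral amino acids, differed by 4.38 (SE 0.22). The bounds for MEP1B and SLC6A14 are those of the main processing only.

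Higher in the liver were the urea cycle enzymes ARG1 (-12.48, SE 0.61) and OTC (-11.20, SE 0.51), each well above background on only 4 of 8 colonic arrays, so these fitted sizes rest in part on background values. So were SLC38A4, a hepatic carrier of neutral amino acids (-7.36, SE 0.40), and PSAT1, an enzyme of serine synthesis (-5.91, SE 0.46). Among the urea cycle and arginine genes 5 of 8 were higher in the liver and 1 in the colon, and among the other plasma membrane transporters 5 of 12 were higher in the liver and 4 in the colon. The one measured other peptide transporter, SLC15A2, was lower in the colon (-1.82, SE 0.43, limma adjusted p = 0.00266).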

How the data were processed

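The authors scanned each array with Agilent Feature Extraction (10.7 per the submitters' processing notes), whose deposited intensity values had the background subtracted and were not normalized between arrays. They also deposited log2 values, quantile normalized in GeneSpring, used here as an alternative. Control spots were left out, outlier spots set to missing, and signals log2 transformed, quantile normalized within a tissue (8 arrays, or all 16 between tissues) and averaged per probe. Fits used limma 3.58.1 (lmFit, eBayes) in R 4.3.3 (with version 1.17.8 of data.table) and Benjamini-Hochberg adjustment over 43603 probes, and were tested on simulated data. Figures used matplotlib 3.10.9. Diet p-values within a tissue rest on the spread between the 4 pigs of each group, drawn by eBayes toward that of all probes. Those between tissues rest likewise on the spread within the 4 groups of the 16 arrays, some of which share a pig. The number of arrays limits the precision.

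The members and lists were chosen with earlier results of these data known, so nothing here is independent support for them. Every member was named, at the probe with the highest mean. From the other lists, genes past both diet thresholds (at most 8) and the 4 largest called tissue differences each way, where well above background on all arrays of the higher tissue, were named. Genes of the pathway lists with an unadjusted p under 0.05 between diets were also named. So were ARG1 for its liver diet difference and SLC15A2, the one measured other peptide transporter. For a member past both thresholds, the 3 most similar genes were named. Probes had a symbol or LOC number in 14415 cases and none in 29188.

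Alternatives tried were 75th percentile scaling, normexp (offset 50), the deposited log2 values, keeping outlier spots, requiring signal well above background, an intensity trend, each array left out, quantile over 16 arrays, the methods' t-test, all arrays in 1 fit, replicate and slide blocks, each diet alone, fold above 2, and averaged probes.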

Additional observations from a re-analysis of the deposited data

Results flagged for a closer look

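SLC15A1 was the one gene for which a single liver array lay far from the other 3 of its group, and this happened in both groups. In the CS group, replicate 4 read 2.98, while the others lay between 0.87 and 0.96. In the RPS group, replicate 4 read 2.93, while the others lay between 0.92 and 0.97. The gap to the nearest other array took 0.956 and 0.972 of the range of the group, above Dixon's 95% critical value for 4 arrays. None of these 8 liver values was well above background. The test was made in 36 groups, and chance marks about 1 group in 20.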

How the results depend on the processing

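In the colon, 2 member probes passed both diet thresholds, both of SLC7A8. The count fell to 0 with normexp background correction and with the methods' t-test (964 probes of the array at an unadjusted p), to 1 with a fold above 2, and was 0 to 3 with single arrays left out. With the replicate number as a block it was 2 in the colon. In the liver 1 probe passed, and the count was 3 with scaling to the 75th percentile, 0 with normexp, with only probes well above background and with a fold above 2, 2 with all 16 arrays in 1 fit, 2 with the replicate number as a block, and 1 to 5 with single arrays left out (5 without RPS replicate 2, 4 without RPS replicate 4, 2 without CS replicate 1 or 4). The added liver calls were of SLC3A1, of SLC3A2 and of the 2 SLC7A8 probes at or near background. Between tissues 17 probes were called, 17 to 19 with single arrays left out, 17 with arrays of the same diet and number blocked as 1 pig, 12 with normexp, 14 with the CS pigs alone (17 there with the replicate number as a block, chosen after seeing the data), 18 with the slide as a random block and 11 with the RPS pigs alone. No member had a diet effect that differed between tissues in any of the 24 alternatives. The cause of these changes was not tested, except that a higher fold cannot pass more probes.

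Over all probes, 1283 passed in the colon, 1968 with the 75th percentile, 172 with normexp, 779 with only probes well above background, 517 with a fold above 2, 2635 without RPS replicate 2 and 2385 without the 2 arrays rich in B cell markers. In the liver the 1554 became 1716 with the 75th percentile, 1647 in 1 fit, 1522 with the replicate block, 1607 without RPS replicate 2, 2029 without RPS replicate 4, 1620 without CS replicate 1, 1662 without CS replicate 4, 220 with normexp, 965 with only probes well above background and 525 with a fold above 2. The 18379 called between tissues became 10833 with normexp.

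Same-numbered arrays did not deviate together between diets (r -0.52 to 0.54 in the colon, -0.15 to 0.10 in the liver). Same-numbered colon and liver arrays deviated together in all 4 CS pairs (0.16 to 0.33), and CS pairs of different number gave -0.16 to 0.01. In RPS the same-numbered pairs gave -0.08 to 0.07 and the other pairs -0.16 to 0.21. The CS numbers may thus mark the same pig, though the labels do not say so. For RPS it is not known which arrays share a pig. With arrays of the same diet and number as a random block, an assumption that the labels do not state, the count of members with a diet effect that differs between tissues was again 0.

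At the brightest probes the diet differences of SLC7A7, SLC7A8, SLC7A9 and SLC3A2 kept their sign in every alternative run in both tissues, though not their size (in the colon SLC7A9 was -0.02 with normexp and -2.08 to -0.12 with single arrays left out, SLC3A2 0.17 to 0.56), and all tissue differences did. SLC3A1 in the colon was 0.16 to 0.96 with single arrays left out and turned to -0.11 without the 2 arrays rich in B cell markers. In the liver, SLC7A2 turned to 0.00099 and SLC15A1 to 0.048 with the 75th percentile, SLC7A1 to 0.0029 with normexp, and averaging all probes gave 0.040 for SLC7A1 and 0.38 for SLC15A1. With single arrays left out, colonic differences spanned -0.54 to 0.23 for SLC7A1, -0.29 to 0.33 for SLC7A2, -0.33 to 1.49 for SLC15A1 and -0.39 to 0.48 for SLC1A1, and liver differences -0.11 to 0.14, -0.35 to 0.28, -0.50 to 0.50 and -0.18 to 0.23. SLC1A1 in the colon and SLC15A1 in the liver were at background.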
